A study of Miniopterus schreibersii with 14 samples.

Results

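The components described here are 200 assembled transcript pieces of the bent-wing bat limb that kept a like mean score in the limb bud and in the later embryonic autopod and had a much lower one in the fetal hand and foot skeleton. They were taken from 64618 components and chosen by their scores. The mean over the 14 libraries had to be at least 50, which 13116 components reached. The S15-17 mean had to lie between 0.67 and 1.5 times the S14 mean (9654 components), and the 2 fetal libraries had to lie within 2-fold of each other, with 1 added to each value. Of the 8893 candidates left, the 200 with the highest ratio of the S15-17 mean to the fetal mean are the members. The rule therefore used the differences between the 3 periods and between the 2 fetal libraries, and these are described without a test.

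The autopod is the hand or foot end of a limb. The data are mRNA sequencing of dissected autopod pieces of embryos of Miniopterus schreibersii, 1 library for each piece and no treatment in any. Stages are named as in the labels. At S14, forelimb and hindlimb buds were each cut into anterior, middle and posterior parts (6 libraries). At S15-17, the forelimb gave digit I, digits II-V and 2 pieces of interdigital tissue, that between I and II and that among II-V, and the hindlimb gave digits I-V and their interdigital tissue (6 libraries). The fetal stage gave metacarpals of forelimb digits II-V and metatarsals of hindlimb digits I-V (2 libraries). No part has a repeat library, and how many embryos went into each is not given in the sources used.

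As background, the early limb bud is a mass of dividing mesenchyme under an ectodermal sheet. Its cells condense into the cartilage of the digits or stay as soft interdigital tissue, which regresses in most mammals and is kept as flight membrane between the long digits of the bat wing. The metacarpals and metatarsals then grow as cartilage and ossify. In mouse, genes of early limb mesenchyme and of cell division decline as skeletal cells differentiate. In these bulk libraries, fewer cells of a type and less RNA per cell cannot be told apart, nor can stage and dissected tissue, since only the fetal libraries hold isolated metapodials.

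The table names components by assembly number, and none of these identifiers matched a gene in the RefSeq table of the species used here (0 matches among 22775 genes). No member can thus be given a gene name, a function, a sequence or a place in a pathway, and markers of the labelled tissues could not be checked. Several components can come from 1 transcript. None of the 200 members shares its assembly number with another member (0), and 17 (8.5%) share it with a component that is no member, against 8.75% of the 13116 components that reached the minimum mean of 50. All 200 members passed the filter on low scores used for the tests below.

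A score is a read count that the authors normalized and rounded to a whole number. Scores summed to 9191852 to 11045040 per library, and the step from 1 score to the next gave depths of 4550754 to 7648427 reads. Scores are not divided by transcript length, so they compare libraries for 1 component and not components with each other. The median log2(score + 1) of all kept components lay 0.18 higher in the fetal libraries than in those of S15-17, so median-centred libraries would deepen the fetal drop of the members by that amount.

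The name given to the set, components lost by the fetal stage, held only in part. Most members were reduced and still detected in fetal bone. The median member had a mean score of 252 at S14, 237 at S15-17 and 25 in the fetal libraries. The fetal mean was at least 10 for 166 of the 200 members, at least 50 for 63 and at least 100 for 42. Only comp10119_c0 was at 0 in both fetal libraries, and 2 others were at 0 in 1 of them. They are therefore called here the fetally reduced components.

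Together the 200 members took 1.43% to 1.51% of all scores in the S14 libraries, 1.37% to 1.51% in those of S15-17 and 0.19% to 0.221% in the fetal ones. Their scores summed to 151884 to 157949 at S14, 130351 to 146763 at S15-17, and 21800 in metacarpals and 19957 in metatarsals. The sum was 6.54 times lower in the fetal mean than in the S15-17 mean. Without the member with the largest score, comp51_c0, it was 6.88 times lower, so that 1 component did not set the value. Metacarpals and metatarsals had nearly the same sum, which the rule favoured, as it limited each member to a 2-fold gap between them.

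**Figure D1:**
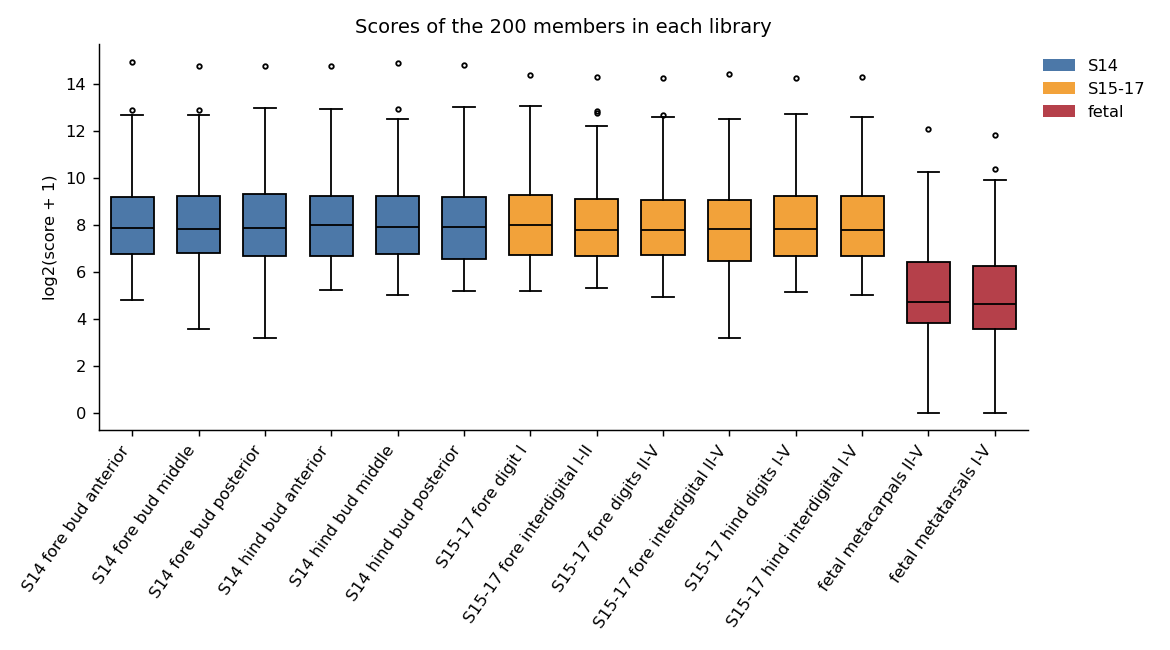
Scores of the 200 fetally reduced components in each of the 14 libraries, as log2(score + 1); boxes give the quartiles, the line in the box the median, whiskers reach 1.5 times the box height and points lie beyond. The median score was 219 to 258 in the 12 embryonic libraries, against 25.5 in metacarpals and 24 in metatarsals at the end of the series.

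The size of the fetal reduction was skewed. The S15-17 mean exceeded the fetal mean 6.7-fold in the median member, with quartiles of 5.44 and 9.26. It did so at least 10-fold in 45 members, at least 20-fold in 12 and at least 50-fold in 5. The candidates as a whole had a median ratio of 1.24, and 1720 of them (19.3%) were at least 2-fold higher at S15-17 than in fetal bone. The members are thus the tail of a broad distribution and not a class set apart by a gap.

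The edge of the list shows this. The last members, in places 199 and 200, had ratios of 4.829 and 4.825, and the next candidates, 201 and 202, had 4.822 and 4.810. For 84 members the lower bound of the exact 95% interval of the read ratio lay under the ratio of the last member, and for 130 other candidates the upper bound lay over it. These intervals cover counting error only. Fetal reads per member ran from 0 to 5691 with a median of 34, and 25 members had at most 10, so for these the ratio is known loosely.

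**Figure D2:**
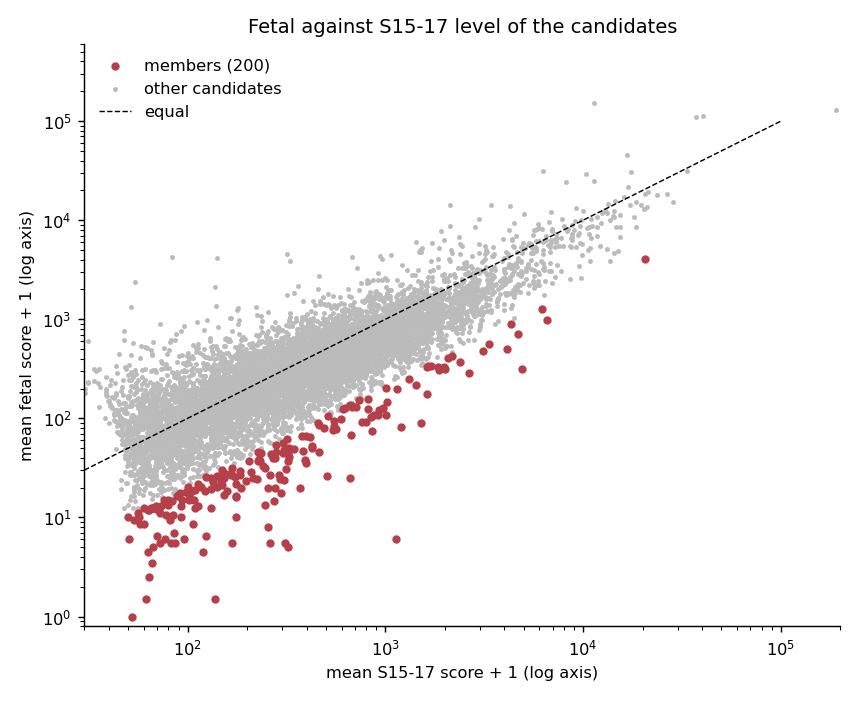
Mean fetal score against mean S15-17 score of the 8893 candidates, each plus 1 on log axes; red points are the 200 members, grey points the other candidates, and the dashed line marks equal scores. The members form the lower edge of 1 continuous cloud, with 5 of them at least 50-fold below the line.

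The embryonic levels held no overlap with the fetal ones. In all 200 members every one of the 12 embryonic libraries scored above both fetal libraries, which was so for 38.9% of the 8693 other candidates. The rule favours this, as it chose on the means. The lowest embryonic score was 4.3 times the highest fetal score in the median member (1 added to each), with a range of 1.29 to 95.3, and at least 2 times in 194 members. Against the digits of the same limb, the metacarpals were lower by a median of -2.79 on the log2(score + 1) scale and the metatarsals by -2.90. All 200 members were over 2-fold lower in metacarpals than in forelimb digits II-V, where 23.3% of the 20429 components kept for the tests were. In metatarsals against hindlimb digits 199 were, and 26.2% of kept components. A drop of over 4-fold held for 185 members in the metacarpals and 195 in the metatarsals, and for 8.2% and 9.55% of kept components.

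Between S14 and S15-17 the members kept their level, as the rule required. The S15-17 mean was 0.934 times the S14 mean in the median member, with quartiles of 0.791 and 1.12. It was higher than the S14 mean in 82 members and lower in 118. Between the fetal libraries, 115 members were higher in metacarpals, 79 were higher in metatarsals and 6 were equal. The median log2(score + 1) of all kept components was also higher in metacarpals, at 6.93 against 6.87 in metatarsals. The same split was not counted for the other candidates, so nothing about the members is read from it.

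The 2 components with the highest ratio show different embryonic profiles before the same end. Component comp775_c0 scored 714 to 2540 in the S14 buds with a median of 1290, 666 to 1512 at S15-17 with a median of 1166, and 4 in metacarpals and 6 in metatarsals. Its scores in interdigital tissue II-V and hindlimb interdigital tissue, 1501 and 1512, were the highest of S15-17, and those of forelimb digits II-V and hindlimb digits, 666 and 773, the lowest. At the thumb the order was reversed, with 1318 in the digit and 1013 in the soft tissue beside it. The comparison of digit with interdigital tissue described below did not call comp775_c0 (limma adjusted p = 0.64). Component comp13145_c0 was flatter, at 115 to 194 in the buds (median 150) and 99 to 214 at S15-17 (median 117), and had a score of 1 in metacarpals and 0 in metatarsals. The S15-17 mean of comp775_c0 was 189-fold above its fetal mean, with 1 added to each, and that of comp13145_c0 91.1-fold. From reads, with nothing added, the ratios were 228 and 185, with 95% intervals of 110 to 567 and 33 to 7317. The intervals are wide, since 7 reads and 1 read were left in the fetal libraries. With 1 added, the fetal scores of comp13145_c0 stood exactly at the 2-fold limit of the rule.

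Component comp5771_c0, which was singled out after its values were seen, ran parallel to comp775_c0. It scored 797, 170 and 320 in the anterior, middle and posterior forelimb bud and 425, 381 and 186 in the hindlimb bud. In digit I and interdigital tissue I-II it scored 357 and 264, in forelimb digits and interdigital tissue II-V 176 and 387, and in hindlimb digits and interdigital tissue 228 and 446. It ended at 4 in metacarpals and 5 in metatarsals. Over the 12 embryonic libraries the score of comp775_c0 was 3.19 to 4.48 times that of comp5771_c0, with a Pearson r of 0.985 on log2 scores, the highest among the 19900 pairs of members. The libraries share their scaling, and whether the 2 are pieces of 1 transcript was not tested.

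Such parallel courses were rare among the members. Only 6 of the 19900 pairs had an r of at least 0.95 over the 12 embryonic libraries, and 39 (0.196%) had at least 0.9, against 0.358% of the pairs of all candidates. The median r was 0.03 between members and 0.04 between candidates. Within the candidates, the members thus did not run more in parallel than the rest. Both sets had passed the limit on change between the embryonic periods, and how far this lowered r was not tested. Whether a shared fetal drop goes with a shared embryonic course outside the candidates was not tested either.

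**Figure D3:**
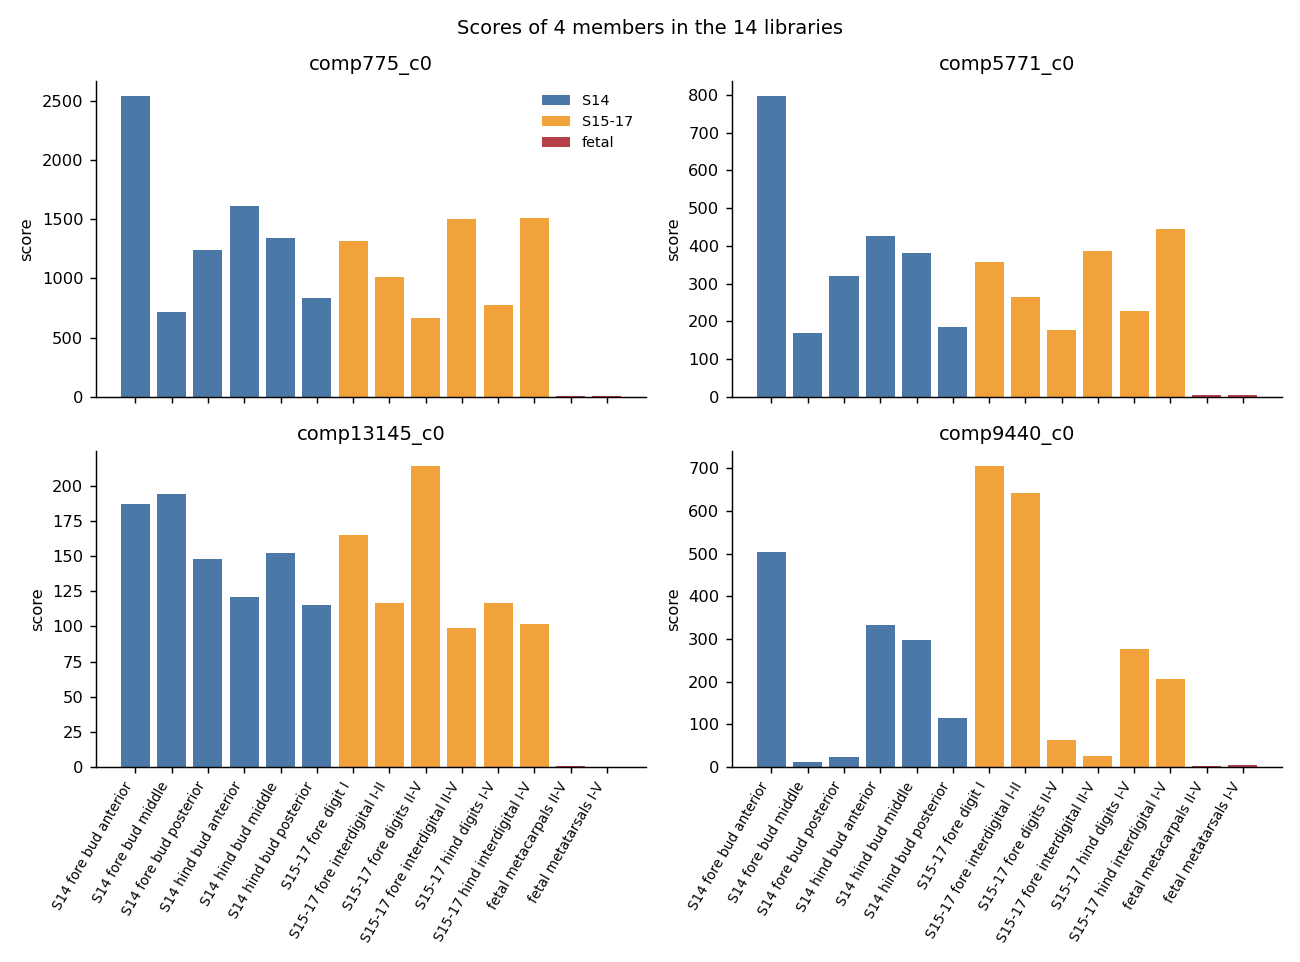
Scores of 4 fetally reduced components in the 14 libraries, in order of stage; bars are single libraries, without error, and each panel has its own axis from 0. Components comp775_c0 and comp5771_c0 follow the same course, comp13145_c0 stays between 99 and 214 in all embryonic libraries, and comp9440_c0 spans 11 to 705. All 4 scored 6 or less in fetal bone.

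The members with the largest scores did not lead the list. Component comp51_c0 scored 27718 to 31883 at S14 (median 28434), 19540 to 22016 at S15-17 (median 20338), and 4397 in metacarpals and 3667 in metatarsals. It varied little within each period, but all its S15-17 scores lay below all its S14 scores, with means of 20574 and 29131. Component comp693_c0 scored 4770 to 6204 at S14 (median 5554), 3835 to 8503 at S15-17 (median 6686), and 995 and 971 in the fetal libraries, with its lowest embryonic score in interdigital tissue II-V of the wing. They ranked 182 and 102 of the 200. At the other end, comp10119_c0 scored 65 to 90 at S14 (median 69.5), 40 to 70 at S15-17 (median 48.5) and 0 in both fetal libraries. With a floor of 3 reads over both set in place of 0, its S15-17 level was 24.1-fold the fetal one. The exact 95% interval of its read ratio, computed as for the other members, begins lower, at 19.4.

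By S15-17 mean, 46 members lay under 100, 98 from 100 to under 500, 43 from 500 to under 2000 and 13 at 2000 or more. The median ratio to the fetal mean was 6.06, 6.93, 6.49 and 6.41 in these bands. The members were 3.47%, 2.39%, 1.5% and 2.14% of the candidates in them. A ratio of at least 10 was reached by 13, 25, 6 and 1 members of the bands. As the rule chose on the ratio, the band medians could not fall under that of the last member.

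Within the 12 embryonic libraries the members varied more than the candidates they were drawn from and about as much as all components with a mean of at least 50. The sets were not matched on score, and counting error widens such variation at low scores. How far this raised the values of the members was not tested. The gap between the highest and lowest embryonic library had a median of 1.03 on the log2 scale in the members, against 0.84 in the candidates and 1.003 in the 13116 components. Its quartiles were 0.81 and 1.31 in the members, 0.64 and 1.07 in the candidates and 0.73 and 1.44 in the 13116. It was at most 1 in 96 members (48%), against 68.9% of the candidates and 49.9% of the 13116. It was over 2 (more than 4-fold) in 13 members (6.5%), against 12.2% of the components with that mean and 1.81% of the candidates. In 11 of these 13 the highest library was a forelimb one. More of the embryonic libraries are forelimb than hindlimb ones. A forelimb library was highest in 64.2% of the components with such a gap and a mean of at least 50. It was so in 68.9% of the candidates with such a gap. In the 13 members the lowest library was a forelimb one in 6 and a hindlimb one in 7. All 13 stayed above both fetal libraries in each embryonic library. The widest was comp9440_c0, with a gap of 5.88. The anterior forelimb bud was the highest library for 40 members (20%), against 22.6% of the components with a mean of at least 50. Interdigital tissue II-V of the wing was the lowest for 35 (17.5%) and forelimb digits II-V for 21 (10.5%), against 16% and 8.42% of those components.

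Whether the members differ by limb, by position in the bud or by tissue was not chosen on directly, and 7 comparisons were tested. The rule was not wholly free of them, as it limited the gap between the fetal limbs and the change between the embryonic periods. All kept components, with which the members are compared below, did not have to pass these limits. How far the limits lowered the number of calls among members was not tested. Each used limma on log2(score + 1) over the 20429 components whose mean score was 10 or more, with matched parts as blocks, and p-values two-sided and adjusted by Benjamini-Hochberg over all of them. Calls are at an adjusted p under 0.05. p-values measure the spread between different parts of the autopod, which stand in for replicates. Only 1 member was called in 1 of the 7 comparisons.

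The wing region of S15-17 (digits II-V of the forelimb and their interdigital tissue) was set against the mean of the thumb side and the foot. The called member was comp9440_c0, lower in the wing. It scored 64 in digits II-V and 26 in interdigital tissue II-V. On the thumb side digit I scored 705 and interdigital tissue I-II 643, and hindlimb digits and interdigital tissue scored 276 and 206. The wing values lay below the other 4. The same split stood in the S14 forelimb bud, where the anterior part, on the thumb side, scored 504 and the middle and posterior parts 11 and 24. In the hindlimb bud the anterior, middle and posterior parts scored 332, 298 and 114. In fetal bone it was at 3 in metacarpals and 5 in metatarsals, below every embryonic library. Its place among the members was borderline. The S15-17 mean of 320 was 1.49 times the S14 mean of 214, where the rule allowed at most 1.5. It lay outside the narrower window around the S14 mean that was tried as a change of the rule.

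limma gave a log2 difference of -3.26 for comp9440_c0 (SE 0.26, adjusted p = 0.039). It was lower in both tissues. The call was lost without forelimb digits II-V (limma adjusted p = 0.12), interdigital tissue II-V (0.56), hindlimb digits (0.39), hindlimb interdigital tissue (0.59) or interdigital tissue I-II (0.052), while the difference stayed between -3.76 and -2.77 in those fits. It was also lost with no filter (0.28) and a pseudocount of 0.25 (0.084). Called lower were 1 of 200 members and 0.00979% of all kept components, and called higher 0 members and 0.0049%. In either direction it was 0.0147%, which is 3 components, so this share says little about the list.

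As a list, the members leaned to lower scores in the wing. They were lower there in 121 of 200 cases and higher in 79 (39.5%). Higher were 48.5% of kept components and 46.2% of those with a mean of at least 50. The median log2 difference was -0.09, against -0.01 over all kept components and -0.02 over those with that mean. The lean kept its sign with upper-quartile scaling (116 lower, 84 higher) and with median-centred libraries (117 lower, 83 higher). In 27 members both wing libraries lay below the other 4, where 7.83% of kept components did, and in 10 both lay above, where 5.99% did. At an unadjusted p under 0.05 there were 25 members (12.5%), against 8.36% of kept components and 8.93% of those with a mean of at least 50. limma voom on recovered reads called 5 (2.5%), against 0.759%. The shares for groups without overlap and for voom were taken over all kept components only, many of them with lower scores than any member. Component comp11472_c0, singled out after its values were seen, had the second lowest difference. It scored 30 and 8 in the wing digits and interdigital tissue, against 265 and 169 in their thumb-side counterparts and 57 and 42 in those of the foot, and its difference of -2.63 (SE 0.36) had a limma adjusted p of 0.14.

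Digits and interdigital tissue of S15-17 were compared over the thumb side, the wing and the foot, which asks whether these components belong to the skeleton-forming or the soft part. No member was called (0 of 200, against 0.0196% of kept components), with 28 members at an unadjusted p under 0.05 (14%, against 8.55%). limma voom on recovered reads called 4 (2%), against 1.07%. Component comp9972_c0 had the smallest p among members higher in digits. It scored 773, 624 and 689 in digit I, forelimb digits II-V and hindlimb digits, against 371, 291 and 490 in the matched interdigital tissues, so the 2 groups did not overlap. Its log2 difference was 0.88 (SE 0.16, limma adjusted p = 0.18), and the adjusted p was 0.0099 with voom.

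In the opposite direction, comp6550_c0 scored 361, 536 and 601 in the digit libraries, against 607, 752 and 732 in interdigital tissue. The groups did not overlap here either, and the log2 difference was -0.51 (SE 0.13, limma adjusted p = 0.38). Over the list, 123 members were higher in digits (61.5%) and 77 lower. Higher were 53.8% of kept components and 60.5% of those with a mean of at least 50, so the members' share was close to the latter. That set has the same minimum mean as the members and was not matched to them on score. The median of the members was 0.08, against 0.02 and 0.05 in these sets. With upper-quartile scaling the split was 105 to 95 (52.5% higher, against 44.4%). All 3 digit libraries lay above all interdigital ones in 15 members and below them in 6, where 6.86% and 4.39% of kept components did. The fetally reduced components were thus found in both tissues, with medians close to those of all components.

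Forelimb and hindlimb were compared over 5 embryonic pairs, 3 of buds, 1 of digits and 1 of interdigital tissue. The fetal pair was left out because the rule used it. No member was called (0 of 200, against 0.0587% of kept components), and 24 had an unadjusted p under 0.05 (12%, against 7.9%). limma voom on recovered reads called 2 (1%), against 0.166%. Component comp2056_c0 was higher in forelimb in each pair. Anterior, middle and posterior forelimb buds had scores of 551, 860 and 376, against 122, 181 and 187 for the hindlimb ones. Forelimb digits II-V had 506, against 272 in hindlimb digits, and interdigital tissue scored 317 in the wing, against 114 in the hindlimb. The bud groups did not overlap, and neither did those of the later tissues. The mean log2 difference was 1.55 (SE 0.22, limma adjusted p = 0.098), and it passed with voom (0.010), robust shrinkage (0.0085) and median-centred libraries (0.020). In fetal bone it scored 39 in metacarpals and 21 in metatarsals.

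Lower in forelimb with the smallest p was again comp9440_c0, by -2.25 (SE 0.60, limma adjusted p = 0.42). Its anterior bud pair went the other way, at 504 in forelimb and 332 in hindlimb. The same sign in all 5 pairs was seen in 25 members, 11 higher (3.27% of kept components were) and 14 lower (4.38%) in forelimb, which together is 12.5% against 7.65% of kept components and 7.84% of those with a mean of at least 50. The split of signs over the list followed that of all components. With 82 higher and 118 lower, 41% were higher, against 43.3% of kept components, and with median-centred libraries (106 and 94) 53% were, against 53.7%.

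In the S14 buds alone, limma called no member and no component between the limbs (0%), with 27 members at an unadjusted p under 0.05 (13.5%, against 10.7%), and voom called 4 members (2%), against 1.03%. Component comp10699_c0 scored 156, 177 and 106 in anterior, middle and posterior forelimb bud, against 49, 79 and 38 in hindlimb bud. The groups did not overlap, and the log2 difference was 1.42 (SE 0.20, limma adjusted p = 0.40, and 0.0085 with voom). Component comp7603_c0 had 373, 298 and 310 in forelimb, against 502, 423 and 492 in hindlimb bud. These groups did not overlap either, and the difference was -0.53 (SE 0.11, limma adjusted p = 0.46). Forelimb buds lay above all hindlimb buds in 17 members and below them in 19, where 7.1% and 10.1% of kept components did.

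The limb difference of a member could also change between S14 and S15-17 while the mean over both limbs stayed within the limits of the rule. limma called no member for this interaction over the 5 pairs (0 of 200, against 0.0049%), with 23 at an unadjusted p under 0.05 (11.5%, against 9.54%), and voom called none of them (0), against 0.117%. Component comp723_c0 came closest. It scored 6664, 6312 and 6951 in forelimb buds, against 5232, 5849 and 5250 in hindlimb buds. Later it scored 4100 in forelimb digits II-V and 2192 in their interdigital tissue, against 5846 and 5384 in the foot. It was thus higher in the forelimb at S14 and lower in the wing later, with an interaction of -1.19 (SE 0.25, limma adjusted p = 0.41). In the fetal libraries it scored 238 in metacarpals and 392 in metatarsals. Component comp3686_c1 went the other way, with 179, 143 and 138 in forelimb and 213, 229 and 210 in hindlimb buds, and later 179 and 168 in the wing against 139 and 118 in the foot. Its interaction was 0.94 (SE 0.27, limma adjusted p = 0.48).

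Between posterior and anterior bud parts, limma called no member and no component (0%), with 13 members at an unadjusted p under 0.05 (6.5%, against 3.88%), and voom called 1, against 0.0783% of kept components. That 1 was comp5194_c1, which was higher in the posterior part in both limbs. It scored 1366 in the posterior and 533 in the anterior forelimb bud, and 1383 and 604 in the hindlimb bud. The log2 difference was 1.27 (SE 0.23, limma adjusted p = 0.95, and 0.022 with voom). Component comp4540_c1 scored 180 in the posterior and 353 in the anterior forelimb bud, and 197 and 340 in the hindlimb bud, a difference of -0.88 (SE 0.14, limma adjusted p = 0.95).

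The middle of the bud, set against the mean of its outer parts, gave no call in limma among members or components (0%). There were 18 members at an unadjusted p under 0.05 (9%, against 4.85%), and voom called 1, against 0.24% of kept components. Component comp3306_c0 scored 1091 in the middle of the forelimb bud, against 721 and 938 in its anterior and posterior parts, and 1217 against 752 and 1001 in the hindlimb bud. The difference was 0.45 (SE 0.09, limma adjusted p = 0.93). Component comp9441_c0 scored 203 in the middle and 335 and 289 outside it in the forelimb bud, and 202 against 291 and 304 in the hindlimb bud, a difference of -0.58 (SE 0.13, limma adjusted p = 0.93).

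**Figure D4:**
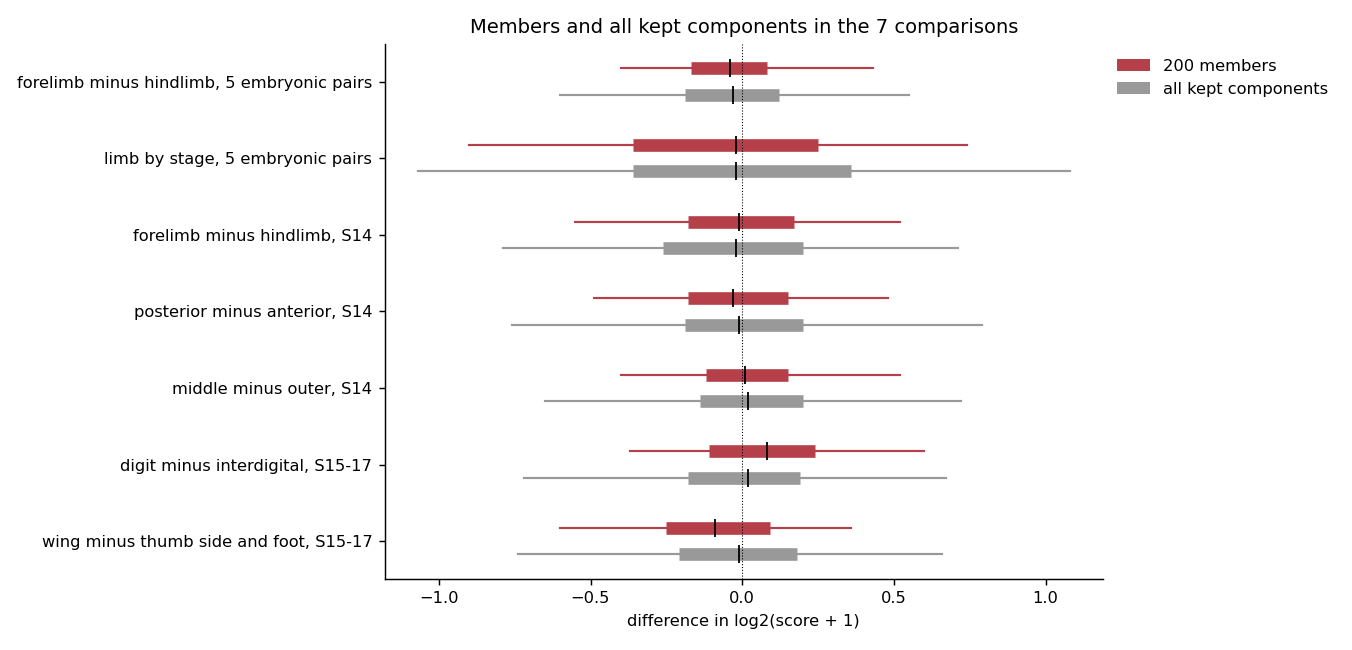
Differences in log2(score + 1) in the 7 comparisons, for the 200 members (red, above) and all 20429 kept components (grey, below); thick bars span the quartiles, thin lines the 5th to 95th percentile and ticks mark the median. The members centre between -0.09 (wing) and 0.08 (digits), and the middle 90% of them spans a narrower range than that of all kept components in each comparison. The kept components include those with a mean score under 50, which no member has. Against components with a mean of at least 50, the median size of the difference was as large or larger in the members (digits 0.18 against 0.14, wing 0.18 against 0.15).

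Over the 7 comparisons, the median size of the difference in the members was 0.13 to 0.31 on the log2 scale, against 0.15 to 0.36 over all kept components and 0.12 to 0.30 over those with a mean of at least 50. They exceeded the components with that mean most between digit and interdigital tissue (0.18, against 0.14) and in the wing comparison (0.18, against 0.15). The share of members at an unadjusted p under 0.05 was above that of all kept components in each of the 7. Set against components with a mean of at least 50, it was 12% to 7.77% between the limbs over 5 pairs, 11.5% to 11.1% for the interaction and 13.5% to 12.4% in the S14 buds. It was 6.5% to 3.28% between posterior and anterior, 9% to 4.24% for the middle, 14% to 8.6% for digits and 12.5% to 8.93% for the wing. These shares carry no test, and at most 5 of the 200 members passed adjustment in any 1 comparison under the settings run.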

How the data were processed

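Libraries were made with a TruSeq kit from DNase-treated total RNA, per the labels' protocols. The authors deposited 1 table of whole-number scores, which are normalized counts after rounding. CASAVA 1.8, RSEM and edgeR are named, with no role or order, per the submitters' processing notes. How the components were assembled is not given in the sources used. The score of 1 read was recovered in each library as the step whose rounded multiples match the scores up to 2000 (1.29 to 2.23), and 99.981% or more of the nonzero scores of each library matched exactly. Depth was 4550754 to 7648427 reads per library, and intervals are exact at 95%.

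Tests used limma (3.58.1, under R 4.3.3) on log2(score + 1), with its trend option, over components whose mean score was 10 or more. Fold changes on this scale understate the change of low components. Buds were fitted with position and limb as factors, S15-17 libraries with region and tissue, and the 5 limb pairs with the matched part as block. The fits were also run on simulated data, drawn with the same spread for every component. That leaves out the differences between unlike parts, which form the spread here, so no conclusion is drawn from the simulation. Named are the 2 members with the highest ratio, the 2 with the largest S15-17 mean, and in each test the called members with the same sign throughout, at most 2 per direction, or, with none called, the 1 with the smallest p per direction. Members, lists and tests were chosen with earlier results of these data known. Alternatives were 2 other pseudocounts, no filter, upper-quartile scaling, median centring, robust shrinkage, voom, fits without the block, omission of each pair or library in turn, and 8 changes of the rule. The rest was done in Python 3.11.15 (scipy 1.17.1, pandas 2.3.3, numpy 2.4.6, figures in matplotlib 3.10.9).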

Additional observations from a re-analysis of the deposited data

Results flagged for a closer look

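Among the named components and the summed member score, 1 of 40 groups held a library set apart from the other 5 of its period by more than Dixon's limit, and chance gives about 1 in 20. Component comp10119_c0 scored 90 in the middle part of the S14 hindlimb bud, the highest of the 6 buds, of which the others scored 65 to 72.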

How the results depend on the processing

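The list depended on its own thresholds. Of the 200 members, 129 were still chosen with a minimum mean of 25, where added candidates took the other places, and 120 with a narrower window around the S14 mean, outside which the other 80 lay, and 141 to 186 under the other 6 changes of the rule. In the wing comparison the 1 called member became 0 with a pseudocount of 0.25 and with no filter, and 5 each under robust shrinkage, voom and median centring, which called 175, 155 and 140 of the 20429 kept components. Leaving out 1 library gave 0 to 1. Members called between digit and interdigital tissue were 3 under median centring and 4 each under robust shrinkage and voom, of 197, 213 and 218 components. Between the limbs over 5 pairs they were 1 under median centring, 1 under robust shrinkage and 2 under voom, of 23, 25 and 34 components, and in S14 buds 2, 4 and 4 in that order, of 21, 150 and 211. Robust shrinkage and voom each called 1 member between posterior and anterior, of 5 and 16 components, and voom called 1 of 49 in the middle comparison. The cause was not tested. All other alternatives, fits without the block among them (0 called), gave the same counts as reported, and leaving out any 1 pair or library gave 0 in the 6 comparisons with no call. No named difference changed sign in 169 refits. The members were named on these same data, which favours a stable sign, and calls did change, as given above. Each part has 1 library, which limits every test here.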
